A study of Homo sapiens with 12 samples.

Results

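This section follows the genes of the checkpoint kinases and of the proteins that switch them on, in newly made RNA of U2OS-MycER cells. The 10 genes are ATM, ATR and PRKDC, which encode the kinases at the top of the pathway, ATRIP, TOPBP1 and CLSPN, which serve ATR, CHEK1, CHEK2 and WEE1, which encode kinases further down, and TP53BP1, a mediator at broken DNA. They were chosen by name and read from the count table by Entrez gene identifier, and all 10 of them had a row among the 23434 genes of the table.

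The 3 upper kinases belong to a family of large kinases related to phosphoinositide 3-kinase (PIKK). ATM is recruited to DNA double-strand breaks, DNA-PKcs (the product of PRKDC) to broken ends that are to be joined, and ATR, with its partner ATRIP, to single-stranded DNA at stalled replication forks, where TOPBP1 activates it and Claspin (CLSPN) hands its signal to CHK1. CHK1 and CHK2 then hold back the CDC25 phosphatases, and WEE1 adds the phosphate that CDC25 removes, so that CDKs stay inactive until DNA is repaired. Because the pathway limits damage when replication and transcription meet, its genes are of interest in cells in which Myc is hyperactive or CDK12, a kinase of elongating RNA polymerase II, is silenced.

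U2OS cells come from a human osteosarcoma, and the MycER derivative makes a chimera of Myc and the estrogen receptor that is idle until 4-hydroxytamoxifen (OHT) is added. The cells received a virus with an shRNA against CDK12 (shCDK12) or with a non-targeting shRNA (shNT), and 1 µg/mL doxycycline induced the shRNA in every group. MycER was left off or was activated with 300 nM OHT for 40 h, which gives 4 groups, shNT, shNT+OHT, shCDK12 and shCDK12+OHT, with 3 libraries in each. All cells were then held in mitosis with 100 ng/mL nocodazole for 8 h, shaken off, released for 12 h and given 0.5 mM 5-ethynyl-uridine (EU) during the last 2 h, so that EU-seq reads the RNA made in that window. The number of shRNAs and of transduced populations is not stated in the labels, nor are the replicates said to be separate cultures, so the p-values measure the spread between these libraries, which may be technical.

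Library totals ranged from 1251695 counts (shNT+OHT replicate 2) to 10447836, an 8.35-fold range, with the shNT and shNT+OHT libraries the shallowest groups. Newly made CDK12 RNA was not lower in each group labelled shCDK12. EU-seq reads RNA made in a 2 h window, not the CDK12 transcript or protein present, so it cannot show whether CDK12 was silenced. Between shNT and the shCDK12 label, CDK12 differed by a log2 fold change of -0.08 (standard error 0.08, adjusted p = 0.447), whereas between shNT+OHT and the shCDK12+OHT label it was lower by -0.88 (0.11, adjusted p = 0.00011). CDK12 rose with OHT in shNT (0.38, adjusted p = 0.0352), and against shNT the shCDK12+OHT label gave -0.51 (0.07, adjusted p = 7.69e-07). Within the shCDK12 label CDK12 fell with OHT (-0.44, 0.07, adjusted p = 9.55e-05). Its OHT response there minus that in shNT was -0.83 (0.13, adjusted p = 4.55e-05). Newly made MYC RNA was lower in the shCDK12 label than in shNT (-0.90, 0.08, adjusted p = 1.8e-10 by edgeR's test). With OHT it rose within that label (0.88, 0.07, adjusted p = 4.98e-08) but not in shNT (-0.09, adjusted p = 0.575). The difference of these responses was 0.96 (0.13, adjusted p = 7.93e-06). Whether MYC counts include the MycER chimera was not tested, nor was the part of MYC in the results below. Levels are given as CPM, counts scaled by library size and TMM factor, with n = 3 per group. Whether the names of groups were exchanged was not tested, and groups are therefore called by their labels below. The mesenchymal markers of the line summed to 977 to 1079 CPM in shNT, 776 to 801 in shNT+OHT, 415 to 424 in the libraries labelled shCDK12 and 525 to 548 in those labelled shCDK12+OHT, with TWIST1 at 0 in every library of 3 groups. COL1A2 was at most at 1.16 CPM, so almost all of the sum came from VIM, COL1A1, RUNX2, SPARC, CDH2 and THY1. Leukocyte and endothelial markers summed to at most 31.6 and 9.03 CPM. The 5 epithelial markers summed to 652 to 970 CPM, above the mesenchymal sum in both groups labelled shCDK12, with the keratin genes KRT8 at 227 to 386 CPM and KRT18 at 352 to 579 CPM, while EPCAM was at most at 9.55, CDH1 at most at 12.2 and KRT19 at 0 CPM in every library. The part that these marker levels play in the results was not tested. In bulk RNA of this kind, fewer cells that make a transcript and less RNA made per cell cannot be told apart, and without counts of the added mouse RNA a change in total RNA synthesis cannot be seen.

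RefSeq start-site windows were at hand for 8 of the 10 genes (12 windows, GRCh38.p14; no window for PRKDC or WEE1). The 250 bases before each start were searched on both strands for CACGTG (the E-box that Myc and Max bind), for the E2F-type sites TTTCCCGC, TTTCGCGC, TTTGCCGC and TTTGGCGC, for CCAAT, for GGGCGG (a GC box) and for CCGGAA (an ETS core). None of the 8 genes held the E-box, found in 6.34% of all 35116 windows of this length, or an E2F-type site, found in 2.79%. CCAAT was in 6 genes and in 10 of the 12 windows (32% of all windows hold it). GGGCGG was in 7 genes and 9 windows (42.6%) and CCGGAA in 4 genes and 4 windows (14.5%). The windows of CHEK1 overlap one another. Such matches describe letters in a window and no binding. The stretches below are those of ATM and CLSPN, the 2 genes that were lower in shNT+OHT than in shNT, and of ATR and TP53BP1, which fell and rose in both groups labelled shCDK12. They are printed 5′ to 3′ on the gene's strand without annotated exon, capitals mark the motifs in either orientation, and in CLSPN 1 CCAAT and 1 GC box overlap.

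ATM (chr11:108222817-108223043, plus strand, GRCh38.p14): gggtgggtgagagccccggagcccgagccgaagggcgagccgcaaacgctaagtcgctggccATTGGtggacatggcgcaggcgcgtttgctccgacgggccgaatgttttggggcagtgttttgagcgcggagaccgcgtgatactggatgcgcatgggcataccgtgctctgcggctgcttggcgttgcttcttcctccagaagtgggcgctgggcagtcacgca

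CLSPN (chr1:35769979-35770228, minus strand, GRCh38.p14): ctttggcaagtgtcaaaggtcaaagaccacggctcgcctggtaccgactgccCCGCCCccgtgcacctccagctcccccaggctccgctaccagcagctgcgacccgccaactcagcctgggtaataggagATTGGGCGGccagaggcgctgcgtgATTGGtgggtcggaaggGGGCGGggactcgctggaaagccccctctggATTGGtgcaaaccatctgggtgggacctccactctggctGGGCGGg

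ATR (chr3:142578734-142578983, minus strand, GRCh38.p14): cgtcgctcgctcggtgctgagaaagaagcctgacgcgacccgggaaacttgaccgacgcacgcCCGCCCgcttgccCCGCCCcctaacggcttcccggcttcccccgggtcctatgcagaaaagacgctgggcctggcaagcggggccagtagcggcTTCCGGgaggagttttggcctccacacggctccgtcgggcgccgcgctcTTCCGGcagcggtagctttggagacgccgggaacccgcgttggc

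TP53BP1 (chr15:43510729-43510890, minus strand, GRCh38.p14): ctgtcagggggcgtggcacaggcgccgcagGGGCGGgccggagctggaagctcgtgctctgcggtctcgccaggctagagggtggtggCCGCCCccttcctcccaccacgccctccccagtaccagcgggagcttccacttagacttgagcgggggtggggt

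In the stretches shown ATM held 1 CCAAT box, 188 bases before the start site, ATR 2 GC boxes and 2 ETS cores, and CLSPN 3 CCAAT and 4 GC boxes, the most matches of the 4. TP53BP1 held 2 GC boxes there, at 220 and 162 bases before its start. Outside the stretches, ATM had an ETS core 14 bases before this start and a second CCAAT box 56 bases before its other start, and TP53BP1 a CCAAT box at 75 and an ETS core at 46 bases.

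Levels between genes can be set side by side only per length. Per kb of the canonical transcript (GENCODE v44), the shNT libraries gave 41.5 ± 2.14 CPM per kb for WEE1, 27.0 ± 3.49 for TOPBP1, 16.3 ± 0.904 for CLSPN and 15.03 ± 0.322 for PRKDC (SD, n = 3). CHEK1 stood at 10.3 ± 1.97, and the other 5 genes were lower, with TP53BP1 at 6.45, ATM at 6.32, ATR at 3.56, ATRIP at 3.41 and CHEK2 at 3.24 CPM per kb. Whether introns were counted is not stated, and a gene with long introns would then read higher on this scale. CHEK2 had the fewest counts, between 4 and 202 in a library, while WEE1 had 227 to 3269.

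**Figure D1:**
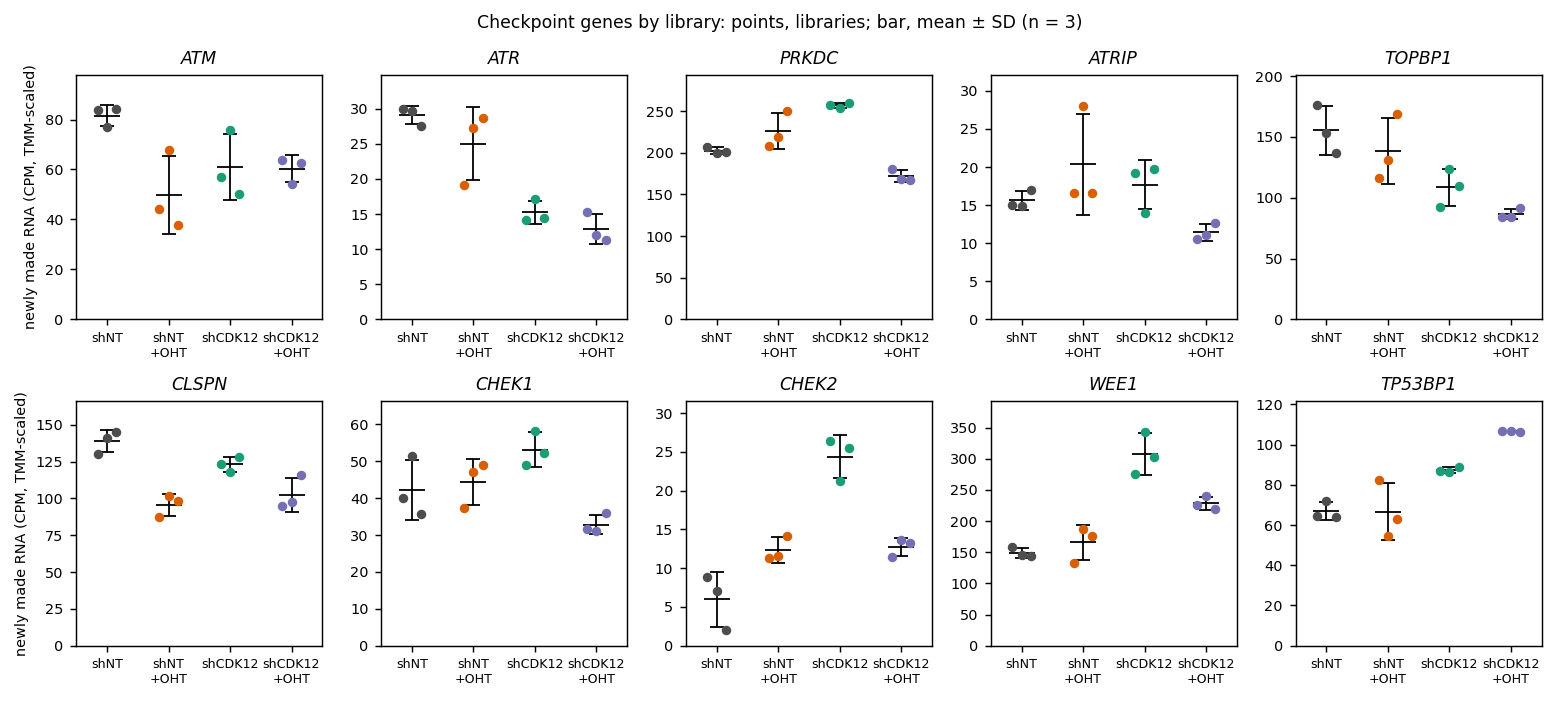
Newly made RNA of each checkpoint gene (vertical axes, CPM scaled by TMM over the 12 libraries, each from 0) by group as labelled; points are libraries, the long bar is the mean and the whiskers are ± SD (n = 3). All shNT libraries of ATM lie above all others, both groups labelled shCDK12 lie low for ATR and high for WEE1 and TP53BP1, and CHEK2 peaks in the libraries labelled shCDK12.

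When MycER was activated in shNT cells, ATM and CLSPN, 2 of the 9 genes tested, changed, and both fell (edgeR's quasi-likelihood test, adjusted p under 0.05 over all genes tested, as throughout). Of all genes tested in this comparison 17.3% were called, 9.05% as higher and 8.29% as lower. The groups did not overlap for 4 of the 10 genes, against 35.9% of all genes tested, and the median log2 fold change was 0.01 over the 9 genes and -0.03 over all. The count fell to 0 without shNT replicate 1, 2 or 3 (7.46%, 6.77% and 7.83% of all genes then called) and to 1 without shNT+OHT replicate 3 (10.7%). In the libraries labelled shCDK12 against shNT, 7 of 10 were called, 4 higher and 3 lower, where 62.0% of all genes were called (29.6% higher, 32.4% lower), and 8 of 10 did not overlap, where 64.5% of all genes did not. In those labelled shCDK12+OHT against shNT, 9 of 10 were called, 3 higher and 6 lower, beside 55.6% of all genes (28.4% higher, 27.3% lower), and 9 did not overlap, beside 59.7%. The median log2 fold change over the 10 genes was 0.24 in the former and -0.42 in the latter, with -0.03 and 0.01 over all genes. These 3 comparisons share the shNT libraries.

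**Figure D2:**
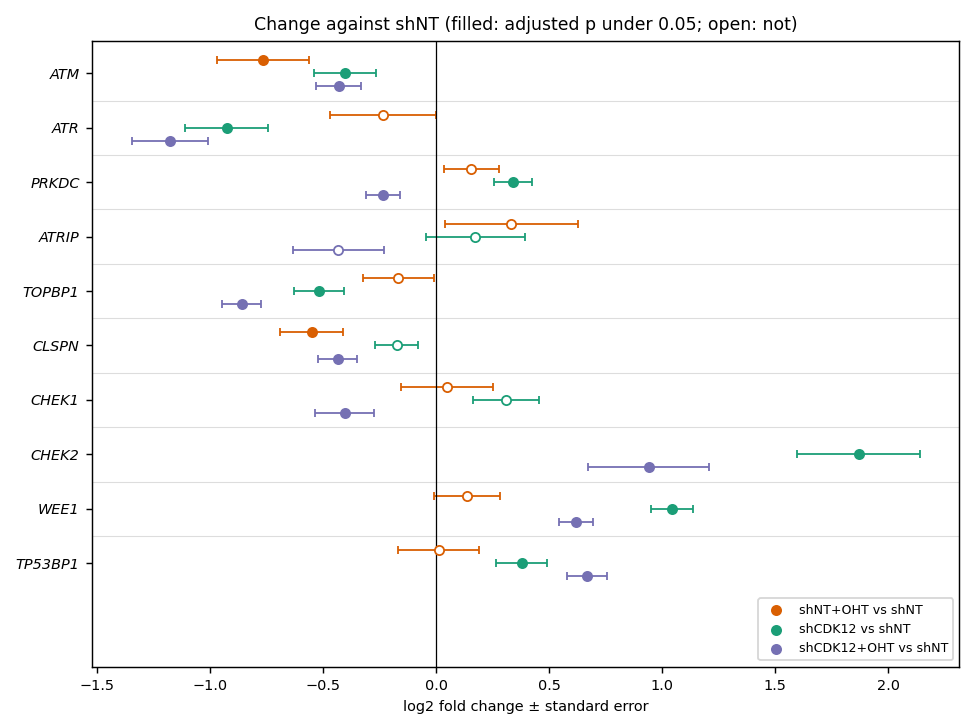
Log2 fold change against shNT ± standard error (horizontal axis) of the checkpoint genes in 3 comparisons that share the shNT libraries, with groups as labelled; filled points passed an adjusted p under 0.05. ATM and CLSPN are the filled points of shNT+OHT, ATR and TOPBP1 lie left of 0 and WEE1 and TP53BP1 right of 0 for both groups labelled shCDK12, and CHEK2 has no point for shNT+OHT, where it was too low to be tested.

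Within the libraries labelled shCDK12, 8 of 10 genes changed with OHT, 1 higher and 7 lower, beside 48.9% of all genes (27.5% higher, 21.5% lower), and 8 did not overlap, beside 56.3%. The median log2 fold change was -0.39 over the 10 genes and 0.05 over all. Between the OHT groups, shCDK12+OHT against shNT+OHT as labelled, 6 of 10 were called, 2 higher and 4 lower, beside 45.4% of all genes (23.8% higher, 21.6% lower), and 7 did not overlap, beside 55.2%; the medians were -0.17 and 0.05. Without shCDK12+OHT replicate 2 this count was 3, beside 31.9% of all genes. The difference between the OHT responses of the shRNA backgrounds (the interaction) was called for 6 of 10 genes, 1 higher and 5 lower, beside 45.2% of all genes (25.6% higher, 19.6% lower). With each library thinned to 1251695 counts (equal depth), ATRIP and CHEK2 fell under the limit on low counts in all 6 comparisons and ATR in the last 4. Of the genes still tested, 1 of 8 was then called in shNT+OHT against shNT (11.2% of all genes), 3 of 8 in shCDK12 (39.3%) and 5 of 7 in shCDK12+OHT (24.1%) against shNT, 1 of 7 with OHT within the shCDK12 label (13.8%), 2 of 7 between the OHT groups (25.2%) and 2 of 7 in the interaction (24.2%).

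**Figure D3:**
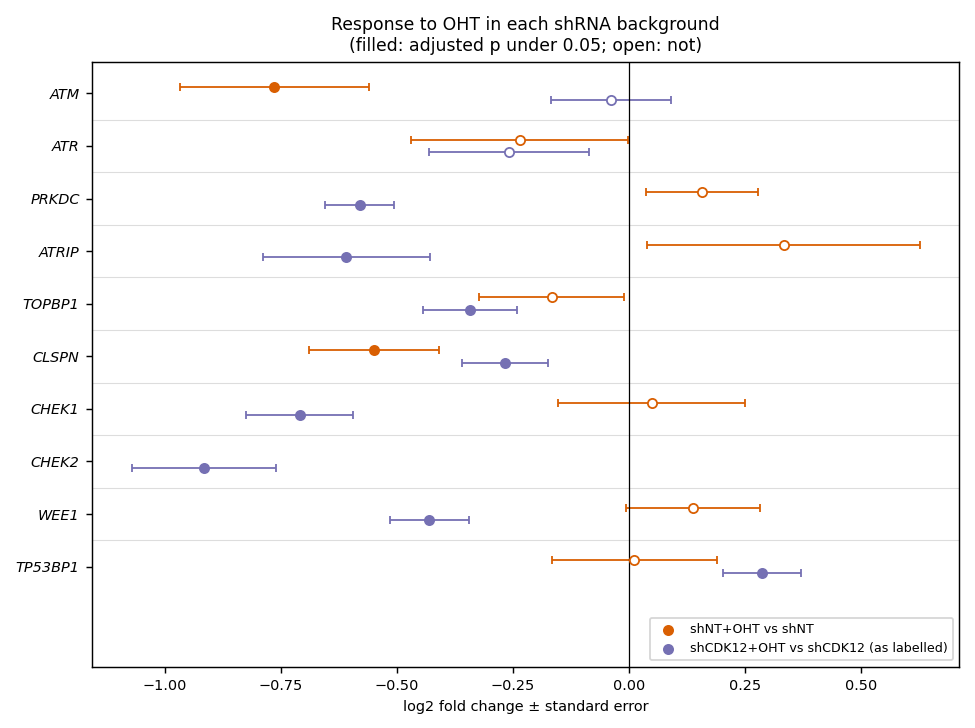
Log2 fold change with OHT ± standard error (horizontal axis) of each checkpoint gene in shNT and in the libraries labelled shCDK12; filled points passed an adjusted p under 0.05. For ATM the shNT point is at -0.76 and the other at -0.04, while PRKDC, ATRIP, CHEK1 and WEE1 lie left of 0 within the shCDK12 label and right of 0 within shNT, where none of these 4 was called; CHEK2 has a point within the shCDK12 label alone.

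ATM was at 83.6, 76.9 and 84.2 CPM in the 3 shNT libraries and at 44.2, 67.6 and 37.7 CPM in the 3 shNT+OHT libraries. It was at 57.0, 75.7 and 50.3 CPM in those labelled shCDK12 and at 64.0, 54.3 and 62.8 CPM in those labelled shCDK12+OHT. Each shNT library stood above all 9 others, and the other 3 groups overlapped one another. ATM fell upon MycER activation by 0.76 on the log2 scale (standard error 0.20, adjusted p = 0.0196), which is 1.70-fold. It was also lower in both groups labelled shCDK12, with log2 fold changes of -0.40 (0.14, adjusted p = 0.0142) and, with OHT, -0.43 (0.10, adjusted p = 4.85e-04). Within the shCDK12 label OHT gave -0.04 (adjusted p = 0.824), and the interaction was called at 0.75 (0.25, adjusted p = 0.0195). Against shNT+OHT the shCDK12+OHT label gave 0.35 (adjusted p = 0.165), which passed without shNT+OHT replicate 2 (0.54, adjusted p = 0.0173). C11orf65 and a Y RNA gene overlap ATM on the other strand, and its reads may include theirs.

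The fall of ATM upon MycER activation did not hold without shNT replicate 1, 2 or 3 or shNT+OHT replicate 3 (adjusted p from 0.0615 to 0.105) nor with the trend of fold change over gene length removed (-0.55, adjusted p = 0.0732), which also ended the interaction call (0.39, adjusted p = 0.2). The interaction was also lost without shNT+OHT replicate 3 (adjusted p = 0.0736) or shCDK12 replicate 3 (adjusted p = 0.0626), that of the shCDK12+OHT label against shNT at equal depth (-0.30, adjusted p = 0.357), and the shCDK12 call without shNT replicate 1 (-0.38, adjusted p = 0.0539) or shCDK12 replicate 3 (-0.28, adjusted p = 0.114).

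Of 8 genes that act with ATM at breaks, 2 rose upon MycER activation, H2AX (log2 fold change 0.56, adjusted p = 0.0158), which encodes the histone that ATM phosphorylates, and MDC1 (0.43, adjusted p = 0.0378), which reads that mark. The Mre11 complex genes were not called there, with MRE11 at -0.90 (adjusted p = 0.0855), RAD50 at 0.07 and NBN at -0.36. In the libraries labelled shCDK12 H2AX alone was called (0.91), and in those labelled shCDK12+OHT 3 genes fell, led by MDC1 (-0.80) and the acetyltransferase gene KAT5 (-0.41). Within the shCDK12 label 4 of 8 fell with OHT, led by H2AX (-0.97) and MDC1 (-0.68). Against shNT+OHT the shCDK12+OHT label had MRE11 higher (0.90) and 4 genes lower, led by MDC1 (-1.21) and KAT5 (-0.62). The interaction was called for H2AX (-1.54), MDC1 (-1.11) and RNF168 (-0.73), whose product ubiquitinates histones near breaks. The list's median log2 fold change was 0.19 upon MycER activation, -0.08 and -0.12 for the labels shCDK12 and shCDK12+OHT against shNT, and -0.20 for the interaction, beside -0.03, -0.03, 0.01 and 0.10 over all genes. Beside the counts of this list and those below, 17.3%, 62.0% and 55.6% of all genes were called in these 3 comparisons against shNT. With OHT within the shCDK12 label 48.9% were called, between the OHT groups 45.4% and in the interaction 45.2%.

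ATR was at 30.0, 29.7 and 27.6 CPM in shNT and at 19.1, 27.2 and 28.7 CPM in shNT+OHT. It was at 14.1, 17.1 and 14.4 CPM in the libraries labelled shCDK12 and at 15.2, 12.1 and 11.2 CPM in those labelled shCDK12+OHT. The 6 libraries of the 2 labels all stood below the 6 shNT and shNT+OHT libraries, and the groups overlapped within each of these sets. Against shNT the shCDK12 label gave a log2 fold change of -0.93 (standard error 0.18, adjusted p = 1.17e-04). The values were -1.18 (0.17, adjusted p = 5.09e-07) for the shCDK12+OHT label against shNT and -0.92 (0.23, adjusted p = 0.0077) in shCDK12+OHT against shNT+OHT. Neither OHT response was called, at -0.24 (adjusted p = 0.524) in shNT and -0.26 (adjusted p = 0.228) within the shCDK12 label, and their difference was -0.02 (adjusted p = 0.97). Counts of ATR were between 33 and 163 in a library, and the first of these calls was lost at equal depth (-0.89, adjusted p = 0.0757), and for the other 2 calls ATR was too low to be tested at that depth. EIF2AK1P1 overlaps ATR on the other strand.

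ATRIP, the partner that brings ATR to coated single-stranded DNA, ranged from 14.8 to 17.0 CPM in shNT, from 16.5 to 28.0 in shNT+OHT, from 13.96 to 19.8 in the shCDK12 label and from 10.6 to 12.7 in the shCDK12+OHT label. The last group lay below all others, which overlapped. ATRIP fell with OHT within the shCDK12 label (-0.61, standard error 0.18, adjusted p = 0.00914) and in the shCDK12+OHT label it was below its shNT+OHT level (-0.74, 0.25, adjusted p = 0.0332), and its interaction was -0.93 (0.33, adjusted p = 0.0261). It was not called against shNT in any group, with log2 fold changes of 0.33 (adjusted p = 0.466), 0.17 (adjusted p = 0.503) and -0.43 (adjusted p = 0.0673) in shNT+OHT, shCDK12 and shCDK12+OHT. The interaction was lost without any 1 of shNT replicates 1 or 2, shNT+OHT replicate 2, shCDK12 replicates 1 or 3 and shCDK12+OHT replicates 1 or 2 (adjusted p from 0.0518 to 0.0686), and the call against shNT+OHT without shNT+OHT replicate 2 or any shCDK12+OHT replicate (adjusted p from 0.0608 to 0.119). The call within the shCDK12 label was lost without shCDK12 replicate 3 (adjusted p = 0.0504). ATRIP spans TREX1 on its own strand, and reads of the 2 genes may be shared.

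TOPBP1, whose product activates ATR, ranged from 136 to 176 CPM in shNT, from 116 to 168 in shNT+OHT, from 92.6 to 123 in the shCDK12 label and from 83.8 to 91.2 in the shCDK12+OHT label. Libraries of shNT overlapped those of shNT+OHT, which overlapped those of the shCDK12 label, and the shCDK12+OHT label lay below all. The fold changes against shNT, in log2, were -0.17 (not called, adjusted p = 0.495) in shNT+OHT, -0.52 (standard error 0.11, adjusted p = 2.59e-04) in shCDK12 and -0.86 (0.09, adjusted p = 6.62e-10) in shCDK12+OHT. The shCDK12+OHT label was below shNT+OHT by -0.67 (0.15, adjusted p = 0.00422) and below the shCDK12 label by -0.34 (0.10, adjusted p = 0.00953), a call lost in a single fit of all 12 libraries (adjusted p = 0.0606) and at equal depth (-0.30, adjusted p = 0.437). Its interaction was not called (-0.17, adjusted p = 0.499).

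CLSPN was at 130.5, 141 and 145 CPM in shNT and at 87.1, 101 and 98.0 CPM in shNT+OHT. It was at 123, 118 and 128 CPM in the libraries labelled shCDK12 and at 94.7, 97.4 and 116 CPM in those labelled shCDK12+OHT. Both groups with OHT lay below both groups without it, library by library, and overlapped each other. CLSPN fell upon MycER activation in shNT (-0.55, standard error 0.14, adjusted p = 0.0152), with OHT within the shCDK12 label (-0.27, 0.09, adjusted p = 0.0235) and in the shCDK12+OHT label against shNT (-0.44, 0.09, adjusted p = 7.09e-05). The shCDK12 label alone gave -0.17 (adjusted p = 0.119), the shCDK12+OHT label against shNT+OHT 0.13 (adjusted p = 0.467), and the interaction 0.28 (adjusted p = 0.161). The first call was lost without any 1 of the 3 shNT libraries (adjusted p from 0.0505 to 0.0855) and at equal depth (adjusted p = 0.0627), and the second without shCDK12 replicate 3, shCDK12+OHT replicate 1 or 2 (adjusted p from 0.0929 to 0.124) in a single fit of all libraries (adjusted p = 0.0618) and at equal depth (-0.26, adjusted p = 0.561).

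None of 11 other genes of ATR activation was called upon MycER activation, at log2 fold changes from -0.37 (ETAA1) to 0.63 (TIPIN). In the libraries labelled shCDK12 3 rose and 5 fell, beside 62.0% of all genes called. TIPIN, which stabilises forks with Timeless, was at 1.80 and RPA3, a subunit of the protein that coats single-stranded DNA, at 0.67, while RAD9A, part of the clamp that brings in TOPBP1, was at -1.08 and TIMELESS itself at -1.05. In the shCDK12+OHT label 2 rose, ETAA1, a second activator of ATR, at 0.77 and TIPIN at 0.40, and 6 fell, led by RAD9A (-1.36) and RPA2 (-1.14). With OHT within the shCDK12 label TIPIN (-1.41) and RPA3 (-0.43) fell. Against shNT+OHT the shCDK12+OHT label had ETAA1 higher (1.16) and 6 genes lower, led by RAD9A (-1.22) and RPA2 (-1.18), and TIPIN had the list's 1 called interaction (-1.97). The list's median log2 fold changes against shNT were 0.06, -0.23 and -0.20 in shNT+OHT and the labels shCDK12 and shCDK12+OHT, and -0.36 in shCDK12+OHT against shNT+OHT, beside -0.03, -0.03, 0.01 and 0.05 over all genes.

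PRKDC was at 207, 199 and 200.5 CPM in shNT and at 208, 219 and 249.96 CPM in shNT+OHT. It was at 257, 254 and 259 CPM in the libraries labelled shCDK12 and at 180.0, 168 and 167 CPM in those labelled shCDK12+OHT. No 2 groups overlapped: the shCDK12 label stood highest, shNT+OHT and shNT followed, and the shCDK12+OHT label was lowest. PRKDC was higher in the shCDK12 label than in shNT (0.34, standard error 0.08, adjusted p = 0.00107) and lower in the shCDK12+OHT label than in shNT (-0.23, 0.07, adjusted p = 0.00804), shNT+OHT (-0.38, 0.11, adjusted p = 0.0176) and the shCDK12 label (-0.58, 0.07, adjusted p = 5.97e-06). Its response in shNT was 0.16 (adjusted p = 0.397), and was called once the gene length trend was removed (0.38, adjusted p = 0.0422), and the interaction was -0.74 (0.13, adjusted p = 1.51e-04). The call against shNT+OHT was lost without shNT+OHT replicate 3 or any shCDK12+OHT replicate (adjusted p from 0.0509 to 0.0888), and that of the shCDK12 label against shNT at equal depth (0.23, adjusted p = 0.214). A Y RNA gene overlaps PRKDC on its own strand.

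Of 7 end-joining genes that work with DNA-PKcs, XRCC6, which encodes Ku70, rose upon MycER activation (0.45, adjusted p = 0.0171). In the libraries labelled shCDK12 LIG4, the ligase of this pathway, was higher (0.41) and XRCC5 (Ku80, -0.78) and PAXX (-0.76) were lower. In those labelled shCDK12+OHT XRCC4 (0.69) and LIG4 (0.46) were higher and PAXX (-1.07) and XRCC5 (-0.74) lower against shNT. None of the 7 passed the test with OHT within the shCDK12 label, where log2 fold changes ran from -0.32 (PAXX) to 0.19 (XRCC4) beside the 48.9% of all genes called. Against shNT+OHT, XRCC4 (0.90) and LIG4 (0.60) were higher and PAXX (-1.56), XRCC5 (-0.63) and XRCC6 (-0.56) lower in the shCDK12+OHT label. The interaction was called for PAXX (-0.82) and XRCC6 (-0.57). The list's median log2 fold change stayed between -0.06 and 0.03 in all 6 comparisons.

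The PIKK proteins need a set of chaperones to fold, and 2 of these 5 genes, RUVBL2 (0.97, adjusted p = 0.00389) and RUVBL1 (0.95, adjusted p = 0.0126), rose upon MycER activation. TTI1 was higher (0.38) and RUVBL1 lower (-0.54) in the shCDK12 label, and RUVBL1 (-0.95) and TELO2 (-0.56) were lower in the shCDK12+OHT label against shNT. With OHT within the shCDK12 label TTI2 rose (0.37) and TTI1 fell (-0.30). The shCDK12+OHT label lay below shNT+OHT for RUVBL1 (-1.88), RUVBL2 (-1.12) and TELO2 (-0.82). The interaction was called lower for RUVBL1 (-1.36), RUVBL2 (-1.28) and TTI1 (-0.43) and higher for TTI2 (0.68), and the list's median interaction was -0.43, beside 0.10 over all genes.

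CHEK1 was at 40.1, 51.3 and 35.6 CPM in shNT and at 37.3, 47.0 and 49.0 CPM in shNT+OHT. It was at 48.9, 58.3 and 52.2 CPM in the libraries labelled shCDK12 and at 31.5, 31.1 and 35.9 CPM in those labelled shCDK12+OHT. The shCDK12+OHT label lay below the shCDK12 label and below shNT+OHT without overlap, and its highest library lay above shNT replicate 3. CHEK1 fell with OHT within the shCDK12 label (-0.71, standard error 0.12, adjusted p = 6.8e-05) and was lower in the shCDK12+OHT label than in shNT (-0.40, 0.13, adjusted p = 0.00996), a call lost without shNT replicate 2 (-0.24, adjusted p = 0.176), without shCDK12+OHT replicate 2 (adjusted p = 0.0523) and in a single fit of all libraries (adjusted p = 0.0501). Its response in shNT was 0.05 (adjusted p = 0.893), and the interaction was -0.74 (0.23, adjusted p = 0.0112). At equal depth CHEK1 kept none of these calls, with -0.75 (adjusted p = 0.169) within the shCDK12 label, -0.78 (adjusted p = 0.0971) for shCDK12+OHT against shNT and -0.52 (adjusted p = 0.418) for the interaction.

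The other 2 comparisons of CHEK1 lay near the threshold. The shCDK12 label gave 0.31 against shNT (standard error 0.15, adjusted p = 0.0671), which was called with upper-quartile normalization (0.40, adjusted p = 0.0182), with the length trend removed (adjusted p = 0.023), and without shNT replicate 2 (adjusted p = 0.0188) or shCDK12 replicate 1 (adjusted p = 0.0448), and turned to -0.025 at equal depth. The shCDK12+OHT label gave -0.41 against shNT+OHT (adjusted p = 0.0673), which was called under 5 of 15 alternatives. It was called by DESeq2 (-0.46, adjusted p = 0.0405) and without shNT+OHT replicate 1 (-0.56, adjusted p = 0.00416). The others were upper-quartile normalization (adjusted p = 0.0395), removal of the length trend (-0.58, adjusted p = 0.013) and a single fit of all libraries (adjusted p = 0.0332). CHEK1 overlaps STT3A on its own strand and ACRV1 on the other, and its reads may include theirs.

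CHEK2 was at 8.90, 7.03 and 2.00 CPM in shNT and at 11.3, 11.5 and 14.2 CPM in shNT+OHT. It was at 26.4, 21.2 and 25.5 CPM in the libraries labelled shCDK12 and at 11.4, 13.6 and 13.2 CPM in those labelled shCDK12+OHT. The shNT libraries were the lowest and the shCDK12 label the highest, with no overlap, and the groups with OHT overlapped between them. CHEK2 was 3.66-fold higher in the shCDK12 label than in shNT (1.87, standard error 0.27, adjusted p = 1.91e-06) and 1.92-fold higher in the shCDK12+OHT label (0.94, 0.27, adjusted p = 0.00346). It fell with OHT within the shCDK12 label (-0.92, 0.16, adjusted p = 1.01e-04), the shCDK12+OHT label gave 0.05 against shNT+OHT (adjusted p = 0.876), and the interaction of -1.85 (0.40, adjusted p = 8.06e-04) was the largest in size of the 10 genes. In shNT+OHT against shNT its mean normalized count of 29.4 was under the limit of 32, and without that limit the log2 fold change was 0.96 (0.40, adjusted p = 0.114). That limit is on the mean over all libraries of a fit. CHEK2 counts were 38, 36 and 4 in shNT and 114, 202 and 138 in the shCDK12 label. Between these groups the gene thus passed mainly through the latter. Its fold changes against shNT and its interaction rest on this low shNT level. HSCB overlaps the gene on the other strand, and partial copies of CHEK2 exist as pseudogenes. Its counts are therefore less certain than those of the other genes.

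WEE1 was at 158, 145 and 144 CPM in shNT and at 133, 187 and 176 CPM in shNT+OHT. It was at 276, 343 and 303 CPM in the libraries labelled shCDK12 and at 226, 240.3 and 219 CPM in those labelled shCDK12+OHT. Every library of the 2 labels stood above every shNT and shNT+OHT library, and the shCDK12 label stood above shCDK12+OHT. WEE1 was 2.06-fold higher in the shCDK12 label than in shNT (1.04, standard error 0.09, adjusted p = 7.13e-10) and 1.54-fold higher in the shCDK12+OHT label (0.62, 0.08, adjusted p = 3.42e-08), and it was higher in shCDK12+OHT than in shNT+OHT (0.49, 0.13, adjusted p = 0.0118), the last not without shCDK12+OHT replicate 2 (adjusted p = 0.0582). It fell with OHT within the shCDK12 label (-0.43, 0.08, adjusted p = 4.17e-04) and gave 0.14 in shNT (adjusted p = 0.55), with an interaction of -0.57 (0.17, adjusted p = 0.0094). At equal depth WEE1 lost the calls within the shCDK12 label (-0.30, adjusted p = 0.226), in the interaction (-0.40, adjusted p = 0.229) and against shNT+OHT (0.38, adjusted p = 0.135).

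WEE1, its relative PKMYT1 and the CDC25 phosphatases meet at CDK1 and CDK2. Of 7 genes of this brake none was called upon MycER activation, from -0.09 (PPM1D) to 0.32 (CDC25B). In the libraries labelled shCDK12 CDC25A (0.56) and CDK1 (0.38) were higher and PKMYT1 (-0.49) lower. In those labelled shCDK12+OHT PPM1D, the phosphatase that ends checkpoint signalling, was higher (0.27) and 4 genes were lower, led by PKMYT1 (-1.47) and CDC25B (-0.69). With OHT within the shCDK12 label 5 fell, led by PKMYT1 (-0.98) and CDC25A (-0.71). Against shNT+OHT, PPM1D was higher (0.37) and 3 genes lower, led by PKMYT1 (-1.59) and CDC25B (-0.995). The interaction was called lower for 4 of 7, led by PKMYT1 (-1.11) and CDC25A (-0.94), and its median was -0.67, beside 0.10 over all genes.

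TP53BP1 was at 64.4, 72.0 and 64.2 CPM in shNT and at 82.4, 54.4 and 63.2 CPM in shNT+OHT. It was at 87.1, 86.2 and 89.0 CPM in the libraries labelled shCDK12 and at 107, 107 and 106 CPM in those labelled shCDK12+OHT. The shNT and shNT+OHT libraries overlapped, the shCDK12 label stood above both, and shCDK12+OHT above all. TP53BP1 was higher than in shNT in the shCDK12 label (0.38, standard error 0.11, adjusted p = 0.00544) and in the shCDK12+OHT label (0.67, 0.09, adjusted p = 1.16e-07), and it rose with OHT within the shCDK12 label (0.29, 0.08, adjusted p = 0.00865), the only 1 of the 10 genes to do so. The shCDK12+OHT label was above shNT+OHT by 0.67 (0.15, adjusted p = 0.00468). With the gene length trend removed the last 2 calls were lost (0.18, adjusted p = 0.0825, and 0.38, adjusted p = 0.0908), the former also in a single fit of all libraries (adjusted p = 0.0757). At equal depth the same 2 calls were lost (0.30, adjusted p = 0.502, and 0.63, adjusted p = 0.0877), as was that of the shCDK12 label against shNT (0.46, adjusted p = 0.193). Its response in shNT was 0.01 (adjusted p = 0.974), and the interaction of 0.27 was not called (adjusted p = 0.251) unless shNT+OHT replicate 1 was left out (0.45, adjusted p = 0.0262). TUBGCP4 overlaps TP53BP1 on the other strand.

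Of the genes that act through 53BP1 to protect broken ends, 4 were tested in shNT+OHT against shNT and none was called, from -0.50 (PAXIP1) to 0.31 (MAD2L2). RIF1, which binds phosphorylated 53BP1, was higher in the shCDK12 label (0.58), SHLD1, a shieldin subunit, was higher in the shCDK12+OHT label (1.13), and with OHT within the shCDK12 label SHLD1 rose (0.67) and RIF1 fell (-0.53). Against shNT+OHT, SHLD1 was higher (1.14) and MAD2L2 lower (-0.50) in the shCDK12+OHT label. RIF1 had the 1 called interaction (-0.61) of 5 genes tested, whose median was 0.20.

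The cells had been released from mitosis, and genes that mark phases of the cell cycle moved in the same libraries. Of all genes 17.3% were called upon MycER activation, 62.0% in the shCDK12 label and 55.6% in the shCDK12+OHT label against shNT. Upon MycER activation 1 of 14 genes of the G1/S transition rose (MCM7, 0.35) and 2 fell (CCNE2, -1.32, and RRM2, -0.46), and 1 of 12 genes of G2 and mitosis rose (KIF20A, 0.61). In the libraries labelled shCDK12 8 G1/S genes rose, led by MCM2 (0.91) and CCNE1 (0.76), and 2 fell (E2F1, -0.44, and RRM2, -0.22), while 6 G2/M genes rose, led by CCNB2 (1.08) and CENPE (0.63), and 2 fell (AURKB, -0.94, and TOP2A, -0.44). In those labelled shCDK12+OHT against shNT 5 G1/S genes rose, led by PCNA (0.43) and SLBP (0.41), 5 fell, led by CDT1 (-0.89) and RRM2 (-0.75), and 11 of 12 G2/M genes fell, led by AURKB (-1.59) and TOP2A (-1.06).

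With OHT within the shCDK12 label 10 of 14 G1/S genes fell, led by CDT1 (-0.80) and MCM4 (-0.75), and 12 of 12 G2/M genes fell, led by KIF20A (-1.36) and PLK1 (-1.24). The median log2 fold changes were -0.50 and -0.86, beside 0.05 over all genes and -0.39 over the checkpoint genes. Against shNT+OHT the shCDK12+OHT label had 2 G1/S genes higher (CCNE2, 1.42, and PCNA, 0.61) and 4 lower, led by CDT1 (-1.02) and CDC6 (-0.47), and 9 G2/M genes lower, led by AURKB (-1.88) and KIF20A (-1.32). The interaction was called lower for 8 G1/S genes, led by CDT1 (-0.95) and MCM4 (-0.88), and higher for CCNE2 (1.30), and lower for 11 G2/M genes, led by KIF20A (-1.96) and PLK1 (-1.70). The part of cell cycle position in the changes of CHEK1, CHEK2, WEE1 and the other checkpoint genes was not tested.

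**Figure D4:**
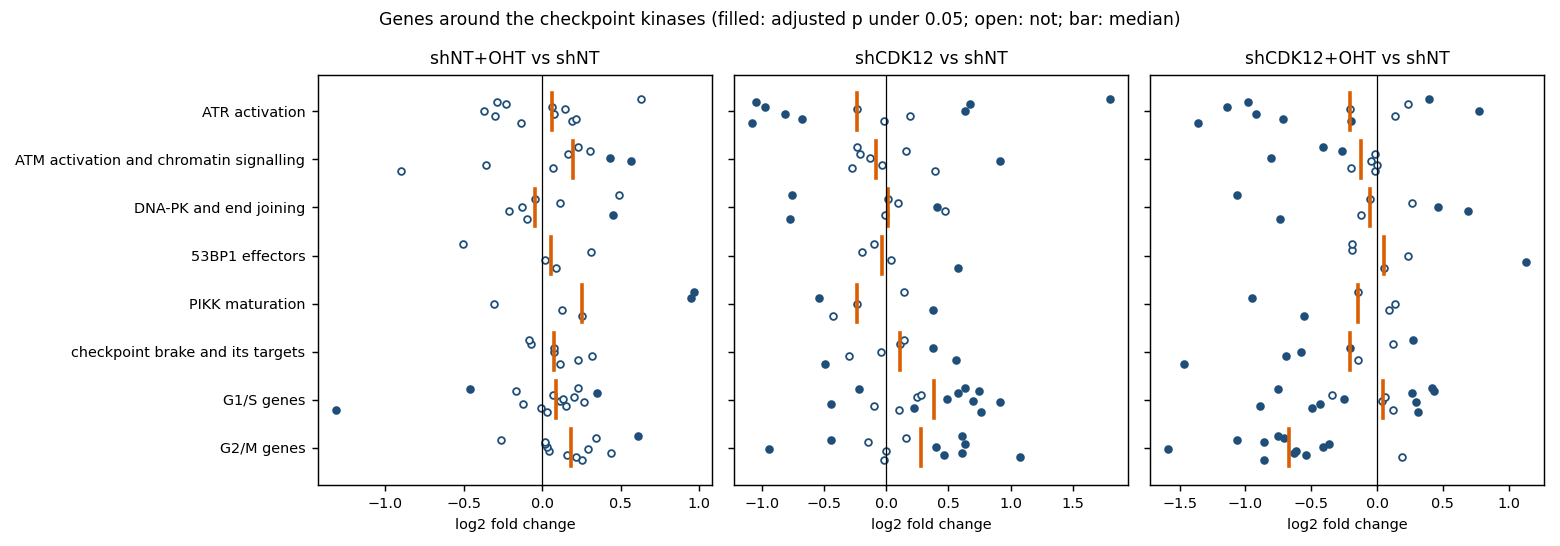
Log2 fold change against shNT (horizontal axes) of the genes of each pathway list, with groups as labelled; each point is a gene, filled where the adjusted p was under 0.05, and the orange bar is the list's median. The G2/M genes lie around 0.18 in shNT+OHT and around -0.67 in the libraries labelled shCDK12+OHT, and the ATR activation list spreads widely in both groups labelled shCDK12.

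Fold changes followed gene length in some comparisons, which bears on the long genes ATM (146 kb), ATR (129 kb), PRKDC (187 kb) and TP53BP1 (108 kb). Upon MycER activation the median log2 fold change was 0.14 over 3849 genes under 20 kb and -0.23 over 1859 genes over 100 kb. Between the OHT groups, as labelled, the order was opposite, with -0.13 under 20 kb and 0.29 over 100 kb, and in the interaction the medians were -0.12 and 0.41. All 3 comparisons hold the shNT+OHT libraries and are not independent. ATM lay beyond the median of its length class in all 3 (-0.76, 0.35 and 0.75), but its 0.35 (standard error 0.20) was close to the median of 0.29. TP53BP1 was at 0.01, 0.67 and 0.27. ATR (-0.24, -0.92 and -0.02) and PRKDC (0.16, -0.38 and -0.74) were below the class median in the last 2. The shorter WEE1 (16.3 kb) and ATRIP (20.9 kb) showed 0.14 and 0.33 upon MycER activation. In the shCDK12 label against shNT the medians were 0.0021 under 20 kb and -0.084 over 100 kb, and in the shCDK12+OHT label against shNT -0.0047 and 0.046.

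**Figure D5:**
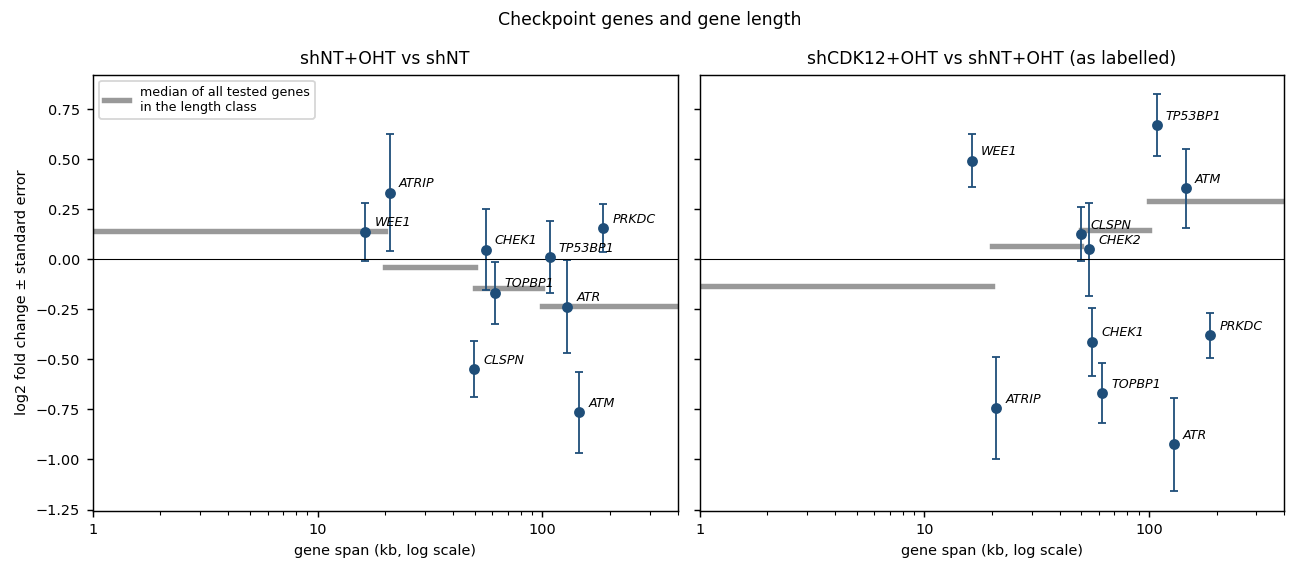
Log2 fold change ± standard error (vertical axis) of the checkpoint genes against gene span in kb (log axis), upon MycER activation (left) and between the OHT groups as labelled (right); grey bars are medians of all tested genes by length class. The grey bars step down from 0.14 to -0.23 on the left and up from -0.13 to 0.29 on the right, and CHEK2 is drawn on the right alone.

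The genes whose pattern over the 12 libraries was most like that of a checkpoint gene were taken from 11668 genes by the root-mean-square difference of log2 CPM, each gene centred on its mean. For ATM these were HYCC2 (0.12), USP45 and TRIP11, against 0.35 for its own spread, and for ATR KPNA4 (0.12), TASOR and HNRNPUL1, against 0.50. PRKDC was nearest to UTP20 (0.08), E2F3 and TPST2, ATRIP to CDR2 (0.16), DDX55 and ZNF200, and TOPBP1 to LMNB1 (0.09), CBX5 and CDC23. CLSPN was nearest to SKA1 (0.11), DDX1 and BRIP1, CHEK1 to BUB1B (0.11), GGCX and CDC6, and CHEK2, with the widest spread of 0.87, to SYPL2 (0.21), NUDT17 and IGSF10. WEE1 was nearest to SP4 (0.08), ARF6 and RAB11FIP2 and TP53BP1 to CHMP4C (0.10), NECTIN4 and RAB11FIP5.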

How the data were processed

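Newly made RNA was measured by EU-seq in 12 libraries, 3 in each of 4 groups taken from the sample labels. The authors deposited 1 table of raw counts for 23434 human genes by Entrez identifier, without normalization. Their processing notes name STAR 2.7.5c, featureCounts 1.4.5-p1 and the hg19 build, but the gene annotation, the counting of introns and the use of strand are not given in the sources used here. The table has no rows for the added mouse RNA. Symbols came from RefSeq (GRCh38.p14) by identifier for 23284 rows, and the 150 that matched none were kept in the fits.

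Tests used edgeR 4.0.16 under R 4.3.3 (TMM, quasi-likelihood test, genes with a mean normalized count above 32, Benjamini-Hochberg adjustment over all genes tested, adjusted p under 0.05). Each pair of groups was fitted on its own 6 libraries, and the difference of OHT responses between shRNAs (interaction) on all 12. Levels are CPM over TMM-scaled library sizes, and log2 fold changes come from the fits. The script was tested on simulated data. The named genes are the 10 checkpoint genes, CDK12, MYC and up to 3 genes of most similar pattern. In each pathway list they are the 2 largest rises and 2 largest falls among called genes (all of them where 2 or fewer were called). A list with no call is given by its extremes, and the Mre11 complex genes were named after their values were seen. Members and lists were chosen with earlier results of these data known. Likeness was computed on log2 of CPM plus 0.5.

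Alternatives were DESeq2 1.42.0, upper-quartile normalization, no filter on low counts or a limit of 100, a replicate block, thinning to 1251695 counts, removal of a per-library loess trend over gene length (span 0.5), joint fitting of the 12 libraries, and omission of each in turn. Replacing one group labelled shCDK12 by the other was added after seeing the data. Totals of 1251695 to 10447836 counts set the precision, and intervals and tests cover these libraries only. Transcript lengths and overlaps are from GENCODE v44, and gene spans and start-site windows from RefSeq GRCh38.p14.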

Additional observations from a re-analysis of the deposited data

Results flagged for a closer look

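For 6 of the 10 checkpoint genes the OHT response in one shRNA background differed from that in the other, by edgeR's test of the interaction over all 12 libraries, where 45.2% of all genes were called. The difference, the log2 response within the shCDK12 label minus that within shNT, was 0.75 for ATM (adjusted p = 0.0195), -0.74 for PRKDC (adjusted p = 1.51e-04), -0.93 for ATRIP (adjusted p = 0.0261), -0.74 for CHEK1 (adjusted p = 0.0112), -1.85 for CHEK2 (adjusted p = 8.06e-04) and -0.57 for WEE1 (adjusted p = 0.0094). The median over all genes was 0.10 and moved to -0.02 with upper-quartile normalization, and relative to the former the 6 values were 0.65, -0.85, -1.04, -0.85, -1.95 and -0.67. At equal depth the calls of CHEK1 (-0.52, adjusted p = 0.418) and WEE1 (-0.40, adjusted p = 0.229) were lost, and ATRIP and CHEK2 were too low to be tested. The call of ATM was lost with the gene length trend removed (0.39, adjusted p = 0.2) and without shNT+OHT replicate 3 or shCDK12 replicate 3 (adjusted p = 0.0736 and 0.0626), and that of ATRIP without any 1 of 7 libraries (adjusted p from 0.0518 to 0.0686). Each is a difference of libraries as labelled. Newly made CDK12 RNA was not lower in the libraries labelled shCDK12 than in shNT, which does not measure silencing. The interaction of CDK12 itself was called by the same test (-0.83, adjusted p = 4.55e-05). Newly made MYC RNA was lower in the libraries labelled shCDK12 than in shNT (-0.90, adjusted p = 1.8e-10 by edgeR's test). The part of an exchange of labels in these differences was not tested.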

How the results depend on the processing

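Of 59 fold changes of the checkpoint genes, 19 kept their direction and their side of the threshold under every alternative in which they were tested. An alternative that left a gene under the limit on low counts was skipped for that gene. This befell CHEK2, ATR and ATRIP at equal depth, at the limit of 100 or both, so their kept results passed fewer alternatives. Under at least 1 alternative 24 lost a call, 8 gained one and 16 changed sign. A result can be in more than 1 of these counts, and the cause was not tested. The counts include the replacement of one group labelled shCDK12 by the other, which compares other libraries and is no change of processing. All sign changes of PRKDC and ATRIP came from that replacement alone. At equal depth, where fewer counts remain and 8, 8, 7, 7, 7 and 7 of the 10 genes were tested, 1 gene was called in shNT+OHT against shNT (beside 11.2% of all genes), 3 in shCDK12 (39.3%) and 5 in shCDK12+OHT (24.1%) against shNT, 1 in shCDK12+OHT against shCDK12 (13.8%), 2 in shCDK12+OHT against shNT+OHT (25.2%) and 2 in the interaction (24.2%), groups as labelled. A single fit of all libraries called 5 genes in shCDK12+OHT against shCDK12 (37.4% of all genes). Leaving out each library gave 0 to 2, 6 to 8, 8 to 9, 6 to 8, 3 to 7 and 4 to 7 genes in the same order, while 6.77% to 24.5%, 55.0% to 60.6%, 49.1% to 54.7%, 40.8% to 51.2%, 30.9% to 52.6% and 39.8% to 49.4% of all genes were called. At equal depth CHEK1 changed sign in shNT+OHT (-0.25) and shCDK12 (-0.025) against shNT, ATM in shCDK12+OHT against shCDK12 (0.39) and CLSPN in shCDK12+OHT against shNT+OHT (-0.070). With the gene length trend removed, CLSPN (-0.026) and CHEK2 (-0.12) in the last comparison and TP53BP1 in the interaction (-0.083) changed sign, and CHEK2 there was at -5e-04 by DESeq2 and -0.0052 with upper-quartile normalization. Without 1 library, CHEK1 (-0.032 to 0.20) and TP53BP1 (-0.15 to 0.15) in shNT+OHT against shNT, ATM in shCDK12+OHT against shCDK12 (-0.16 to 0.16), CHEK2 in shCDK12+OHT against shNT+OHT (-0.067 to 0.15) and the interactions of ATR (-0.20 to 0.14) and TOPBP1 (-0.31 to 0.011) spanned 0, and none of these was called with all libraries. With the other group labelled shCDK12 in its place, PRKDC, ATRIP and CHEK1 in shCDK12 against shNT were at -0.23, -0.43 and -0.40. Those in shCDK12+OHT against shNT were at 0.34, 0.17 and 0.31, and PRKDC and CHEK1 against shNT+OHT at 0.21 and 0.29. Against shNT this replacement only repeats the comparison of the other label given above. In both of these comparisons ATM, ATR and TOPBP1 were called lower and CHEK2, WEE1 and TP53BP1 higher. Over all genes, removal of the length trend moved the split from 930 higher and 852 lower to 923 and 546 in shNT+OHT against shNT, from 2776 and 2522 to 2199 and 3018 in shCDK12+OHT against shNT+OHT, and from 2994 and 2295 to 2412 and 2765 in the interaction. Scaling also turned the split: from 3442 and 2686 to 2767 and 2900 by DESeq2 and to 2957 and 3226 with upper-quartile normalization in shCDK12+OHT against shCDK12, from 2776 and 2522 to 2481 and 2743 and to 2502 and 2770 in shCDK12+OHT against shNT+OHT, from 3465 and 3800 to 3450 and 3421 and to 3963 and 3282 in shCDK12 against shNT, by DESeq2 from 3399 and 3268 to 3056 and 3060 in shCDK12+OHT against shNT, and with upper-quartile normalization to 2479 and 2777 in the interaction. Each library's deviations from its group's mean log2 CPM, gene by gene, were correlated between libraries of different groups (r). Over 18 pairs of samples with the same replicate number, r ran from -0.09 to 0.31 (median 0.03), with 2 over 0.1. Those 2 joined shNT+OHT and the shCDK12 label, at 0.28 for replicate 1 and 0.31 for replicate 2. Over 36 pairs with different numbers r ran from -0.35 to 0.0996 (median -0.02), with 0 over 0.1. Deviations from a group's mean cancel within the group, which pushes the 2 kinds of pairs apart, so their contrast is partly built in. The main fits did not take the numbers to pair the samples, and whether replicates share a batch was not tested. With the replicate block 2, 8, 9, 8, 5 and 6 genes were called, beside 16.9%, 63.5%, 53.8%, 49.8%, 41.5% and 46.0% of all genes, CHEK1 was gained in shCDK12 against shNT (0.32, adjusted p = 0.0455), ATRIP lost in shCDK12+OHT against shNT+OHT (-0.76, adjusted p = 0.0516), and TP53BP1 in shNT+OHT against shNT was at -0.0066. Scaling by mouse RNA was not run, since no mouse rows are in the table analysed. Depth limits CHEK2, ATR and ATRIP most, with as few as 4, 33 and 34 counts in a library.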
